A study of Mus musculus with 5 samples.

Results

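The genes described here are the nuclear-encoded oxidative phosphorylation genes whose symbols begin with Nduf followed by a, b, c, s or v, with Uqc, with Cox4 to Cox8 or with Atp5, together with Sdha, Sdhb, Sdhc and Sdhd. Of the 24084 gene rows in the count table, 95 matched, and 88 of them passed the filter on low counts that left 11437 genes for testing. By complex they were 44 members for complex I, 4 for complex II, 11 for complex III, 20 for complex IV and 16 for complex V. The symbol rule brings in assembly factors (Ndufaf1 to Ndufaf7, Uqcc1 to Uqcc3 and Atp5sl) as well as subunits. It leaves out cytochrome c1, which appears below only within a list of genes that work beside the complexes. Every subunit encoded in mitochondrial DNA is also left out and is not analysed here. Ndufa4 and Ndufa4l2 were placed with complex IV, and Atp5sl, despite its symbol, with the complex I assembly factors.

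The samples were regulatory T cells (Tregs), the Foxp3-expressing T cells that restrain immune responses, sorted from mice aged 13 days. All mice carried Foxp3-DTR/GFP, an allele that puts a receptor for diphtheria toxin and a green fluorescent protein under Foxp3 control, and no treatment is named for either group. Skin-draining lymph nodes gave 3 libraries and skin gave 2. The comparison is skin against lymph node.

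Oxidative phosphorylation takes place in the inner mitochondrial membrane. Complex I takes electrons from NADH and complex II from succinate, complex III passes them from ubiquinol to cytochrome c, complex IV hands them to oxygen, and complex V uses the proton gradient that complexes I, III and IV build to make ATP. Most subunits are made from nuclear genes and a smaller number from mitochondrial DNA, and assembly factors join them without staying in the finished complex. In T cells this pathway supplies much of the ATP of resting and memory cells, and Tregs are known to rely on it more than other effector T cells do.

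Gene counts per library ranged from 10468795 to 14595018. Foxp3 was at 89.6, 95.0 and 99.8 CPM in lymph node and at 78.0 and 118 CPM in skin, where CPM are counts scaled to a common library size, so the libraries overlapped for the gene that defines the cells. All 9 T cell markers had counts in each group, at a summed 11155 to 12651 CPM in lymph node and 7272 to 8200 CPM in skin. Markers of myeloid cells summed to 20.1 to 45.8 CPM in lymph node and 2228 to 3002 CPM in skin, with 14 of 21 detected in lymph node, 20 of 21 in skin, and Itgax without a count in either. Keratinocyte markers summed to 12.8 to 21.1 CPM in lymph node and 179 to 207 CPM in skin, with Krt1 and Dsg3 at 0 throughout. Of the 12 markers, 7 were detected in lymph node and 9 in skin. Among the 7 tested, 4 had positive and 3 negative log2 fold changes. Krt14 held 68.9 and 110 CPM of the skin sums. Krt10 had 33, 55 and 42 counts in lymph node and 0 in both skin libraries. Fibroblast markers summed to 0.272 to 3.68 and 9.99 to 89.3 CPM, with Pdgfra at 0 throughout and Sparc holding 84.6 and 8.09 CPM of the skin sums. Endothelial markers, with Cdh5 at 0 throughout, summed to 353 to 499.8 and 2.90 to 69.0 CPM. Nearly all of that was Pecam1, which T cells also express, at 352 to 499.8 CPM in lymph node and 55.9 and 2.90 CPM in skin, while Emcn was at 12.9 CPM in skin library 1 and at 0 elsewhere. Muscle markers, with Myh4 and Des at 0 throughout, summed to 18.7 to 23.8 and 0.799 to 33.2 CPM, and mast cell markers, with Mcpt4, Cma1 and Tpsb2 at 0 throughout, to 9.65 to 24.9 and 0 to 12.8 CPM. The part of these other cells in the values below was not tested, and in such bulk libraries fewer cells of a type and less RNA per cell cannot be told apart.

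The summed level of the oxidative phosphorylation genes was lower in the skin libraries, while the difference of nearly every single gene did not pass the test. The members took 1.75%, 1.41% and 1.41% of the gene counts of the lymph node libraries and 1.07% and 1.14% of those of the skin libraries, and these shares did not overlap. Their summed level was 15025 ± 2142 CPM in lymph node (SD, n = 3) and 11365 ± 788 CPM in skin (SD, n = 2), a ratio of 0.757. The ratio of the summed T cell markers was 0.638, and the part of the cell mixture in the members' ratio was not tested. Of the 88 tested members, 74 had a negative log2 fold change and 14 a positive one, that is 84.1% negative against 55.7% of all tested genes. The median log2 fold change was -0.47 over the tested members and -0.21 over all tested genes. The members' median was below that of all genes in this fit, but not in each alternative: it was -0.45 against -0.85 with limma-voom, -0.51 against -0.86 with a replicate block, -0.44 against -1.05 without skin library 1 and -0.51 against -0.59 without skin library 2. Of the 68 members whose average log2 CPM was at least 5, 61 were negative, with a median of -0.43, against a median of 0.036 over all 5742 genes at that level. Genes without a count in a group were also set to the bound that 3 counts over the group allow, and the medians were then again -0.47 for members and -0.21 for all tested genes.

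Gene by gene, 1 member passed the test. Under the quasi-likelihood test of edgeR, with p-values adjusted by Benjamini-Hochberg across the 11437 genes, 0 members were higher in skin and 1, Uqcrc2, was lower at an adjusted p under 0.05. Over all tested genes 7.70% passed, 2.40% as higher and 5.30% as lower, and 6.88% passed where the average log2 CPM was at least 5, so the members' share of 1.14% was below the background. At an unadjusted p under 0.05 in edgeR there were 9 of the 88 tested members, against 3371 of the 11437 tested genes, so this share too was below the background. DESeq2's Wald test called 1 member higher and 7 lower, where it called 28.5% of all tested genes, and limma-voom called 0 higher and 5 lower, where it called 19.5%. The DESeq2 calls were Uqcrfs1 as higher and Ndufs8, Uqcrc2, Uqcc1, Uqcc3, Cox7a2l, Atp5a1 and Atp5s as lower, and those of limma-voom were Ndufs8, Ndufaf6, Uqcrc2, Uqcc1 and Atp5s. Both skin libraries were below all 3 lymph node libraries for 32 tested members (36.4%), near the 33.5% of all tested genes. At an average log2 CPM of at least 5 the shares were 35.3% of members and 24.7% of all tested genes. Both were above for 1 member, Uqcrfs1 (1.14%), against 16.8% of all tested genes. The plot of fold changes by complex shows the single members around these medians.

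**Figure D1:**
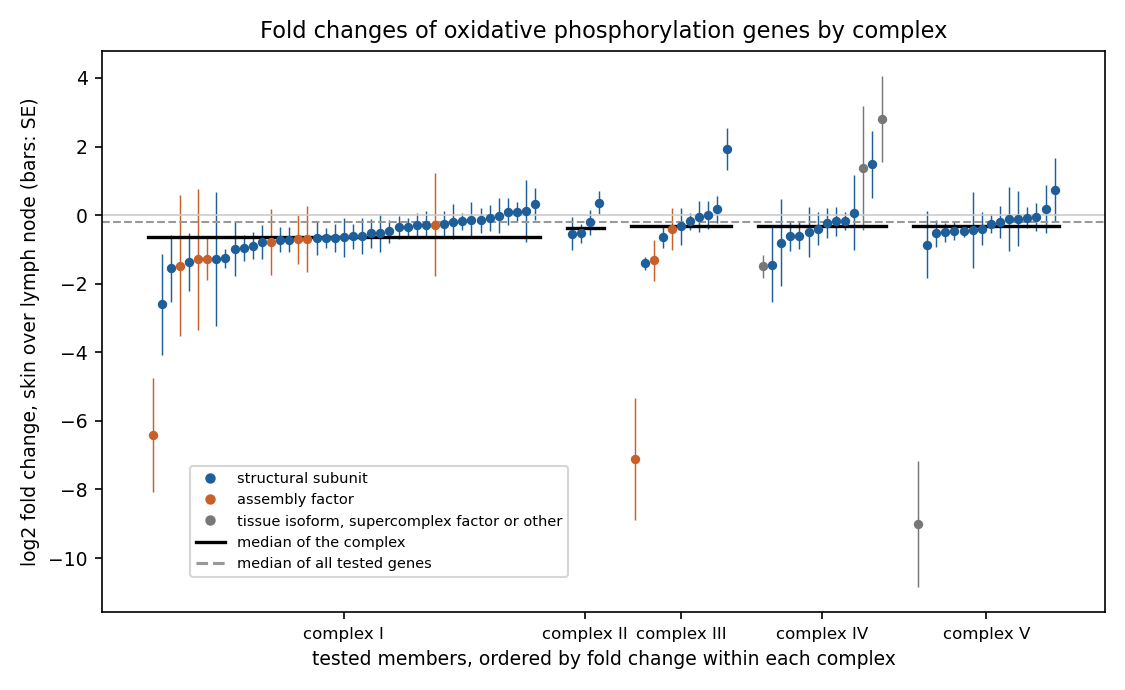
Log2 fold change of skin over lymph node (y axis) for the 88 tested members, ordered within each complex (x axis); points are edgeR estimates and bars are SE. Most points lie between the zero line and -1.5, the complex I median is the lowest at -0.65, and the 3 points under -6 are Ndufaf6, Uqcc1 and Atp5s, whose skin counts are at or near 0 and whose plotted size depends on the fit.

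Complex I had the lowest median of the 5 complexes, at -0.65, followed by -0.37 for complex II, -0.33 for complex III and -0.32 for complexes IV and V. Summed CPM showed another order. The ratio of skin to lymph node was 0.704 for complex I, 0.713 for complex III, 0.785 for complex IV, 0.789 for complex V and 0.888 for complex II. The summed levels in the skin libraries were below all 3 lymph node libraries for every complex, as the plot of the sums shows. The differences between complexes were not tested. Lymph node library 1 held the highest sum for every complex, and without it the complex I median was -0.36. Without skin library 1 complex II had the lowest median, at -0.83 against -0.59 for complex I.

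**Figure D2:**
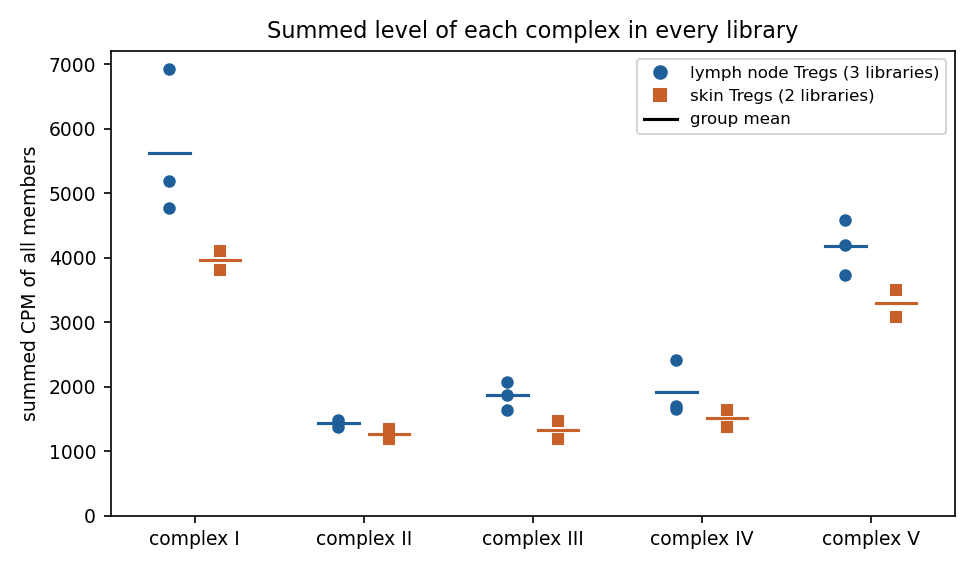
Summed CPM of all members of each complex (y axis) in each library; circles are the 3 lymph node libraries, squares the 2 skin libraries, and horizontal lines the group means. Complex I spans 4775 to 6926 CPM in lymph node and 3818 to 4105 CPM in skin, while complex II spans 1371 to 1482 and 1195 to 1348 CPM.

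Complex I is the NADH dehydrogenase, built from a set of core subunits that carry the flavin and the iron-sulfur clusters and a larger set of accessory subunits around them. Of its 43 tested members, 39 had negative fold changes and 0 passed the test, with 3 at an unadjusted p under 0.05 in edgeR. The summed level of the 7 nuclear core subunits was 1607, 1395 and 1422 CPM in lymph node and 942 and 908 CPM in skin, a ratio of 0.627. For the 29 accessory subunits the sums were 4975, 3085 and 3466 CPM against 2718 and 3021 CPM, a ratio of 0.747. Both skin sums were below every lymph node sum in each class.

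Ndufs8, an iron-sulfur core subunit near the quinone site, was closest to the threshold in complex I. It stood at 333, 261 and 248 CPM in lymph node and at 112 and 122 CPM in skin. The skin libraries were close together and below the lymph node libraries, and the log2 fold change was -1.26 ± 0.27 (SE) with an edgeR adjusted p of 0.0509. Ndufs1, the largest iron-sulfur core subunit, was at 188, 234 and 199 CPM in lymph node and at 130 and 11.1 CPM in skin. Both skin values were below, but they differed from each other more than skin library 1 did from lymph node, and its adjusted p was 0.363.

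Ndufv1, the subunit that binds NADH and the flavin, was at 299, 227 and 332 CPM in lymph node and at 89.6 and 283 CPM in skin, so the groups overlapped. Ndufs3, another core subunit, was at 59.0, 46.3 and 47.9 CPM against 57.0 and 71.3 CPM and had the largest positive fold change of complex I, 0.33 ± 0.47 (SE). Ndufv3, an accessory subunit, was at 133 to 160 CPM in lymph node and 148 and 163 CPM in skin, with a log2 fold change of 0.10. The abundant accessory subunits Ndufa9 and Ndufa13 were at 258 to 375 and 224 to 403 CPM in lymph node. In skin they were at 275 and 271 CPM and at 181 and 317 CPM, within or overlapping the lymph node range.

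Complex II, succinate dehydrogenase, is also an enzyme of the citric acid cycle and has no mitochondrially encoded subunit. None of its 4 genes passed the test, with 0 at an unadjusted p under 0.05 in edgeR and 0 calls by DESeq2 or limma-voom, and the libraries overlapped for all 4. Sdha, the flavoprotein that oxidises succinate, was at 474, 652 and 687 CPM in lymph node and 492 and 343 CPM in skin. Sdhb, the iron-sulfur subunit bound to it, was at 501, 327 and 326 CPM against 365 and 625 CPM. Their log2 fold changes were -0.53 ± 0.28 and 0.36 ± 0.34 (SE). Sdhb was the only gene of the complex with a positive estimate.

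The membrane anchors Sdhc and Sdhd hold the quinone site. Sdhc was at 162, 111 and 132 CPM in lymph node and 131 and 55.2 CPM in skin. Sdhd was at 345, 280 and 299 CPM against 361 and 172 CPM. In skin library 2 each anchor gene was below the lymph node range, while in skin library 1 Sdhc was within it and Sdhd just above.

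Complex III, the cytochrome bc1 complex, held the member that passed the test and the member with the clearest value the other way. Uqcrc2, the core protein 2 that forms part of the matrix arm, was at 537, 499.6 and 528 CPM in lymph node and at 187 and 207 CPM in skin. The libraries of each group were close together and far from the other group. Its log2 fold change was -1.41 ± 0.20 (SE) with an edgeR adjusted p of 0.0406. The gene lies on chromosome 7, at 120635176 to 120659524 of mm10 on the plus strand, and overlaps Pdzd9 on the other strand, so reads of the overlap cannot be told apart where counting did not use strand. The call did not hold without any single lymph node library, at adjusted p values of 0.113 to 0.115 in edgeR, fits in which 0 of all tested genes passed.

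Uqcrc1, the partner core protein of Uqcrc2, was at 278, 349 and 398 CPM in lymph node and at 321 and 282 CPM in skin. The groups overlapped, with a log2 fold change of -0.18 ± 0.24 (SE). Per kb of transcript, the scale on which genes can be set side by side, Uqcrc2 was at 275 ± 10.3 CPM per kb in lymph node (SD, n = 3) and Uqcrc1 at 207 ± 36.3. In skin the order was the other way, with Uqcrc2 at 104 ± 7.32 and Uqcrc1 at 182 ± 17.0 CPM per kb (SD, n = 2).

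Uqcrfs1, the Rieske iron-sulfur protein that takes electrons from ubiquinol, was the only tested member with both skin libraries above all lymph node libraries. It was at 30.8, 27.7 and 24.3 CPM in lymph node and at 52.2 and 158 CPM in skin. The skin libraries were 3.02-fold apart, and the log2 fold change of 1.93 ± 0.61 (SE) had an edgeR adjusted p of 0.104. Of the small subunits, Uqcrh, the hinge protein, was at 460, 287 and 367 CPM in lymph node and 200 and 275 CPM in skin, with an adjusted p of 0.231. Uqcr11 was at 114, 72.1 and 71.8 CPM against 97.2 and 97.3 CPM, inside the lymph node range.

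**Figure D3:**
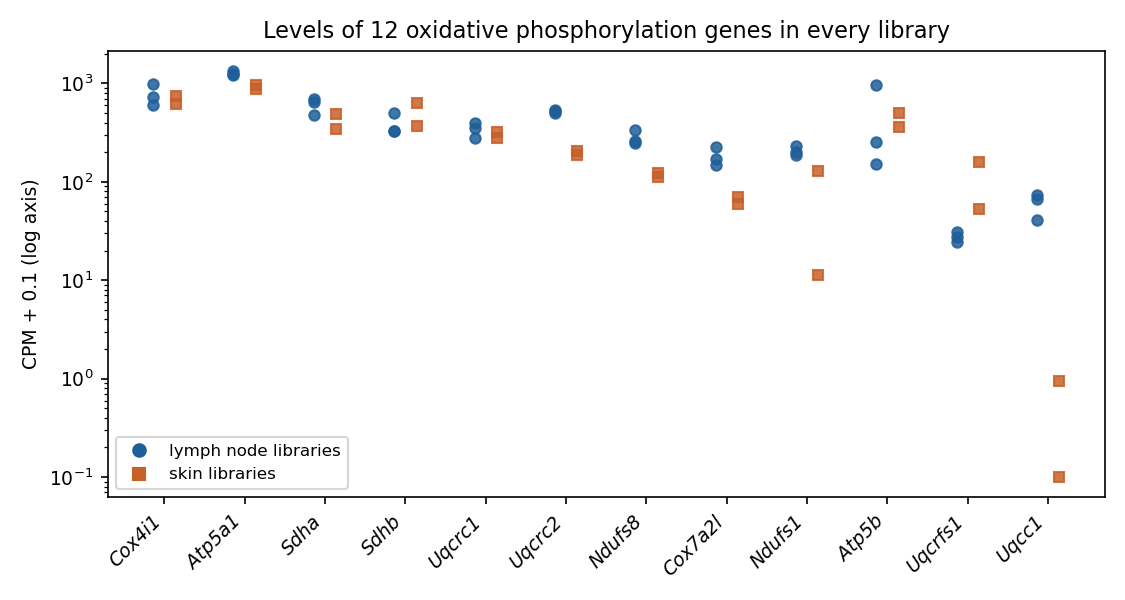
CPM plus 0.1 on a log axis for 12 members in every library; circles are lymph node libraries and squares skin libraries. Uqcrc2, Ndufs8 and Cox7a2l show both skin libraries close together below all lymph node libraries, Ndufs1 and Uqcrfs1 show skin libraries far apart, and Atp5b shows a lymph node library far above the others.

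Complex IV, cytochrome c oxidase, had 14 tested members of 20, with 10 negative fold changes and 0 passing the test, and 1 at an unadjusted p under 0.05 in edgeR. That gene was Cox7a2l, which joins complexes III and IV into supercomplexes and is not a subunit of the plain enzyme. Cox7a2l was at 224, 149 and 169.8 CPM in lymph node and at 59.5 and 69.7 CPM in skin. The groups did not overlap, and the log2 fold change was -1.49 ± 0.34 (SE) with an adjusted p of 0.0545 in edgeR. Of the runs of 50 bases in the coding sequence of Cox7a2l, 70.7% also occur in a pseudogene, Gm6969. The part of this in its counts was not tested. Cox4i1, the largest nuclear subunit, was the most abundant member per length at 1033 ± 258 CPM per kb in lymph node (SD, n = 3) and 912 ± 132 in skin (SD, n = 2). Its libraries overlapped, at 980, 605 and 724 CPM against 610 and 749.5 CPM.

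Several complex IV subunits exist as a widespread form and a form of muscle, lung or testis. The widespread form had the higher CPM per kb in every library in each pair. In CPM, Cox6b1 stood at 161 to 338 CPM in lymph node and 147 and 160 CPM in skin, and Cox7a2 at 71.5 to 123 against 102 and 67.7 CPM. Cox7b stood at 93.3 to 183 CPM against 98.5 and 72.4 CPM, so only Cox6b1 had both skin libraries below the lymph node range. The muscle forms Cox6a2 and Cox8b and the testis forms Cox7b2 and Cox8c had no count in any library, and Cox4i2, of lung, had 7 counts, all in lymph node library 2. Cox7a1, of muscle, had 6, 12 and 3 counts in lymph node and 29 and 0 in skin. Cox6b2, known from testis, had 31, 12 and 44 counts in lymph node and 30 and 256 in skin, so its positive fold change of 2.79 ± 1.26 (SE, adjusted p of 0.217) lay in skin library 2.

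Ndufa4, a subunit of complex IV first assigned to complex I, was at 284, 170 and 201 CPM in lymph node and 93.6 and 238 CPM in skin. Its paralog Ndufa4l2, a target of the hypoxia response in other cells, had 0 counts in the 3 lymph node libraries and in skin library 1 and 355 counts (35.4 CPM) in skin library 2. Against a floor of 3 counts over the lymph node group, its skin mean was at least 246-fold higher, all of it from 1 library. The filter on low counts did not keep it for testing. Cox5a, a subunit on the matrix side of the enzyme, showed the reverse split, at 10.5, 7.29 and 9.99 CPM in lymph node and 44.0 and 8.09 CPM in skin.

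Complex V, the ATP synthase, had 14 negative fold changes among 16 tested members, 0 calls and 2 at an unadjusted p under 0.05 in edgeR. Atp5a1, the alpha subunit of the catalytic head, was at 1235, 1207 and 1334 CPM in lymph node and 953 and 870.0 CPM in skin. The groups did not overlap and the log2 fold change was -0.47 ± 0.16 (SE), with an adjusted p of 0.127. Atp5c1, the rotating gamma subunit, was at 892, 549 and 662 CPM against 434 and 558 CPM and overlapped.

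Atp5b, the beta subunit that carries the catalytic sites, had a wide spread between libraries. It was at 253, 966 and 151 CPM in lymph node and at 359 and 494 CPM in skin. Lymph node library 2 was far above the rest and both skin libraries lay between it and the other lymph node libraries. The log2 fold change was -0.10 ± 0.81 (SE) with all libraries and 1.09 without lymph node library 2.

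The same library stood apart for other members. Among members with a mean of at least 20 CPM over the lymph node libraries, lymph node library 2 was 3-fold or more above both others for 4 of 74 (5.41%): Atp5b, Atp5d, Cox6a1 and Cox8a. Over all tested genes it was so for 42 of 6660 (0.631%). Atp5d, the delta subunit of the rotor stalk, was at 33.2, 131 and 28.7 CPM, Cox6a1 at 48.1, 181 and 58.6 CPM and Cox8a at 8.22, 85.1 and 10.3 CPM in lymph node. In skin these were at 53.9 and 16.7, at 88.1 and 48.6, and at 23.0 and 16.7 CPM. The ratio of that library to the mean of the other lymph node libraries was over 1 for 22 tested members and under 1 for 66, with a median of 0.754. Over all tested genes the median was 0.979.

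Atp5s, a protein linked to the coupling of ATP synthase, had 33, 102 and 74 counts in lymph node and 0 in both skin libraries. Against the floor of 3 counts over the skin group it was at least 35.3-fold lower in skin, and its edgeR adjusted p was 0.0554. Atp5j2, which encodes the f subunit of the membrane part, was at 188, 102 and 115 CPM in lymph node and 89.8 and 97.9 CPM in skin. Both skin libraries lay below the lymph node range, but close to its lower end.

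The assembly factors that the symbol rule brings in had a lower summed skin to lymph node ratio than the subunits. They were also far less even between the skin libraries. All 11 had negative fold changes, with a median of -1.28, 0 calls and 2 at an unadjusted p under 0.05 in edgeR. Their summed level was 532, 445 and 471 CPM in lymph node and 222 and 233 CPM in skin, a ratio of 0.472. Over the 83 members other than assembly factors and Atp5s the ratio was 0.766. This difference was not tested. It did not extend to the sum of the assembly factors outside the symbol rule, described below. Their ratio was 0.831, with a median log2 fold change of -0.89.

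Uqcc1, which helps insert cytochrome b into complex III, was at 40.4, 67.2 and 72.8 CPM in lymph node and at 0.842 and 0 CPM in skin, with an edgeR adjusted p of 0.0633. Ndufaf6, a complex I assembly factor of low level, had 15, 12 and 8 counts against 0 and 0, at least 5.84-fold lower, with an adjusted p of 0.0795. For these the skin libraries stood together below lymph node. For others they split. Ndufaf3 was at 61.0, 40.8 and 45.6 CPM in lymph node and 35.2 and 0 CPM in skin, and Atp5sl at 44.5, 33.9 and 36.6 CPM against 0 and 31.3 CPM. Ndufaf1 was at 54.7, 49.2 and 43.2 CPM against 0.842 and 80.2 CPM, and Ndufaf7, a methyltransferase that acts on a core subunit, at 83.2, 72.2 and 74.3 CPM against 80.6 and 7.99 CPM. The higher skin value lay below the lymph node range for Ndufaf3 and Atp5sl, within it for Ndufaf7 and above it for Ndufaf1.

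**Figure D4:**
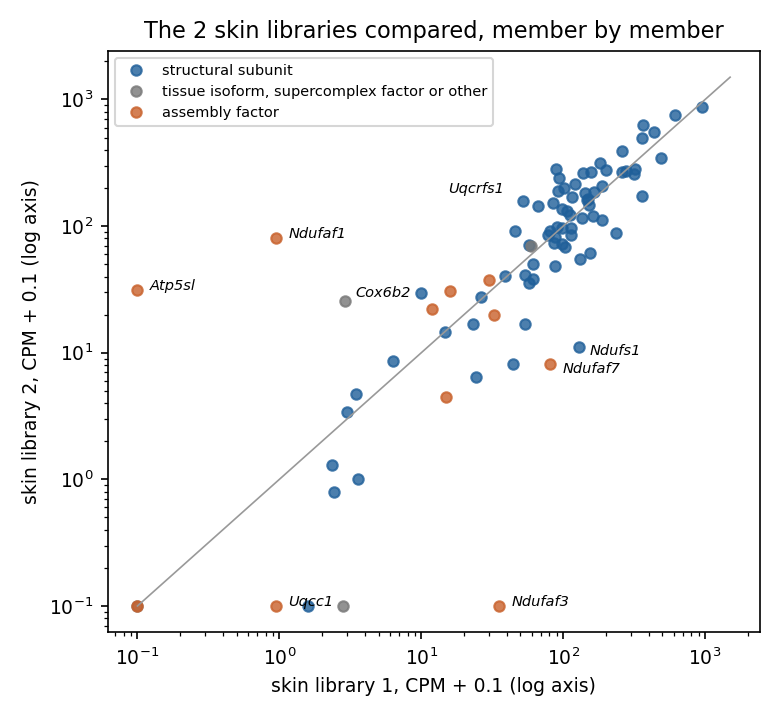
CPM plus 0.1 of the 88 tested members in skin library 1 (x axis) and skin library 2 (y axis), both on log axes, with the line of equal values; colours mark subunits, assembly factors and other members. Abundant subunits follow the line, while Ndufs1 (130 and 11.1 CPM), Ndufaf1 (0.842 and 80.2 CPM), Ndufaf3 and Atp5sl lie far from it.

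The higher skin library exceeded the lower by a median of 10.1-fold over the assembly factors and 1.38-fold over the other members without Atp5s. The median was 5.12-fold over all tested genes and 2.0-fold over those at an average log2 CPM of at least 5. In these medians a gene at 0 in the lower library, or in both, was ranked above every other ratio. Ndufaf6, at 0 in both skin libraries, was ranked so. Without it the assembly factors' median would lie between the 3.37-fold of Ndufaf2 and the 10.1-fold of Ndufaf7. Between the 3 lymph node libraries the highest exceeded the lowest by a median of 1.5-fold for the assembly factors and 1.69-fold for the others. Tested members without a count numbered 0 in each lymph node library, 3 in skin library 1 and 6 in skin library 2. Over all tested genes 18.9% and 23.9% had no count in the skin libraries and 2.12% to 3.04% in the lymph node libraries.

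Among the widespread subunits, those whose sequence is shared nearly whole with other loci had low counts. Many of these genes have processed pseudogenes, copies of the spliced transcript in the genome, and reads that match more than 1 place were left uncounted. Every run of 50 bases of each coding sequence was searched in the transcripts of other loci, and 36 members shared at least 1 such run while 59 shared none. For 34 of them a processed pseudogene was among the copies. The 40 widespread subunits with no shared run had a median of 232 CPM per kb in lymph node. The 6 with over 99% of runs shared (Ndufab1, Ndufb4, Cox7c, Atp5g1, Atp5g2 and Atp5l) had a median of 5.75 CPM per kb. Tissue forms, assembly factors and Atp5s were not part of this comparison, and several of them were at or near 0 with no shared run. How far the counts of these 6 fall short of their transcripts is not known. Members with under 5% of runs shared had a median log2 fold change of -0.53 and a summed skin to lymph node ratio of 0.752, close to those of all members.

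**Figure D5:**
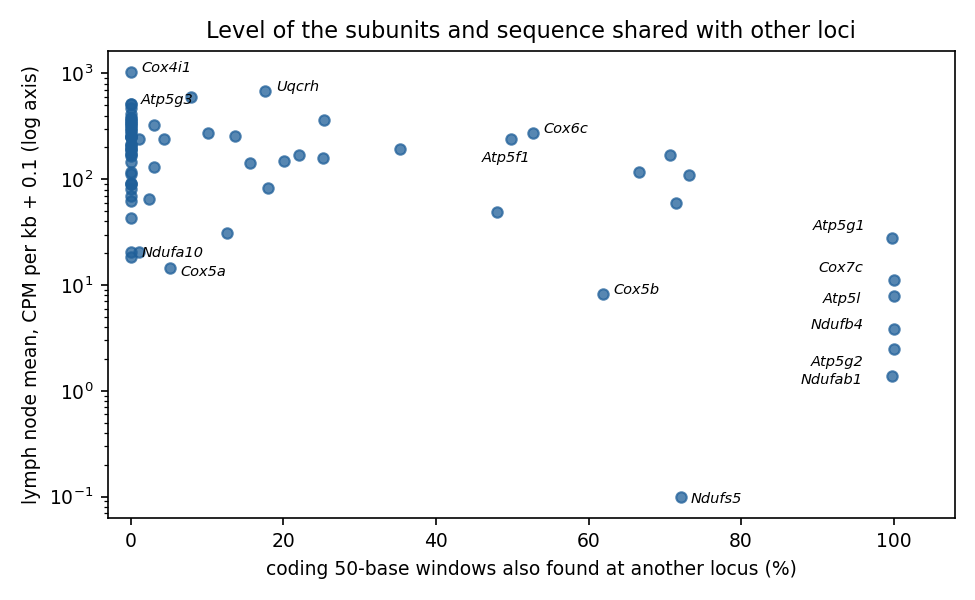
Mean lymph node level in CPM per kb plus 0.1 on a log axis (y axis) of each widespread subunit against the percentage of its coding 50-base runs also found at another locus (x axis). The 6 subunits past 99% lie between 1.30 and 27.8 CPM per kb, under nearly all others, and Ndufs5 has no count.

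The genes of the ATP synthase c ring differ in this way within a family. Whether the shared sequence lowered their counts was not tested. Atp5g1, Atp5g2 and Atp5g3 encode precursors of the same c subunit, which turns in the membrane as protons pass. Their last 90 coding bases, from GENCODE transcripts on mm10, are printed 5′ to 3′ with the stop codon at the end and capitals at each position where the 3 genes are not all alike.
Atp5g1: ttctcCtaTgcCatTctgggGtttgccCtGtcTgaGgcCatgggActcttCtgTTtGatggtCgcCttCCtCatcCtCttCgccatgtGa
Atp5g2: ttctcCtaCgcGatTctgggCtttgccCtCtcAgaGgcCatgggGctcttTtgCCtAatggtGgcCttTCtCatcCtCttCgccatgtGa
Atp5g3: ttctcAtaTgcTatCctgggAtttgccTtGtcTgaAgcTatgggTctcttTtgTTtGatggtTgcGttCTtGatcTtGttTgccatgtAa
Over the bases that encode the mature subunit, Atp5g1 and Atp5g2 were 85.1% identical, Atp5g1 and Atp5g3 79.8%, and Atp5g2 and Atp5g3 78.5%. They differed in their copies elsewhere. Atp5g1 shared 99.7% and Atp5g2 all of its 50-base runs with processed pseudogenes, and Atp5g3 shared 0.

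Atp5g3 was at 461, 307 and 327 CPM in lymph node and 261 and 267 CPM in skin, with a log2 fold change of -0.47 ± 0.26 (SE) and groups that did not overlap. Atp5g1 was at 22.4, 12 and 15.3 CPM against 24.2 and 6.39 CPM, and Atp5g2 at 0.983, 1.25 and 0.883 CPM against 2.25 and 1.20 CPM. Per kb this was 511 ± 117, 27.8 ± 8.93 and 2.36 ± 0.435 CPM in lymph node (SD, n = 3) for Atp5g3, Atp5g1 and Atp5g2. Of the 3, Atp5g3 alone was counted on coding sequence that no other transcript shares.

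For Ndufs5 and Cox7c the counts at the copies themselves were read. The first 50 coding bases of each, printed 5′ to 3′ from GENCODE transcripts on mm10, also occur without a mismatch in a processed pseudogene, BC002163 for Ndufs5 and Gm12338 for Cox7c.
Ndufs5: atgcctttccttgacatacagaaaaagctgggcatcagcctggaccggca
Cox7c: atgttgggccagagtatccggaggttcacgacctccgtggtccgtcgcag
Ndufs5, an accessory subunit of complex I, had 0 counts in all 5 libraries and shared 72.1% of its runs. The row of BC002163 had 208, 91 and 143 counts in lymph node and 36 and 78 in skin. Cox7c, a small complex IV subunit, had 117, 76 and 54 counts against 37 and 9, and the row of Gm12338 had 211, 147 and 275 against 215 and 255. The pseudogene row thus held more counts than the gene in every library.

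The promoters of the family are known for sites of NRF1, a factor that activates nuclear genes of the respiratory chain, and were searched in RefSeq's promoter set on GRCm38.p6. For 79 of the 95 members a promoter was matched, 3 of them by an older symbol, and 250 bases before the start were read on both strands. A common form of the NRF1 motif, GCGCA followed by any base and then GCGC, was in 15 members (19%), in 900 of 9152 tested genes with a promoter (9.83%) and in 4.23% of all RefSeq genes. Letters of the ETS motif, CCGGAAG, were in 16.5% of members and 16.9% of tested genes, and those of YY1, AAGATGGC, in 2.53% and 2.63%. The median G and C content of these promoters was 56.4% for members and 59.6% for tested genes. No test was made of these shares, and a match is a description of letters, not of a bound site.

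For 5 of these 15 members (Sdha, Sdhd, Cox6a1, Atp5c1 and Atp5g2) the stretch around the match is shown 5′ to 3′ on the gene's strand, with the motif in capitals, to show how the letters vary at the open position.
Sdha, chr13:74350304-74350363, minus strand: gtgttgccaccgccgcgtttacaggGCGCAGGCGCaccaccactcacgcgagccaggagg
Sdhd, chr9:50603894-50603953, minus strand: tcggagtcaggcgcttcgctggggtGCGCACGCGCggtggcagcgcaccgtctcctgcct
Cox6a1, chr5:115349086-115349145, minus strand: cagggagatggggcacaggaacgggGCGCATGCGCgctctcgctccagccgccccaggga
Atp5c1, chr2:10080433-10080474, minus strand: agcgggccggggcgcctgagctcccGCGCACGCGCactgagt
Atp5g2, chr15:102671055-102671114, minus strand: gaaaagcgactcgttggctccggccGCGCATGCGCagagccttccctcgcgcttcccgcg
The match began 98 bases before the start in Sdha, 79 in Sdhd, 162 in Cox6a1, 17 in Atp5c1 and 42 in Atp5g2. These 5 genes had log2 fold changes of -0.53, -0.21, -0.49, -0.50 and 0.72, and none passed the test.

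The members are short genes, and short genes as a whole had lower fold changes in these libraries. The median transcript length was 849.5 bases over the tested members and 2762 bases over all tested genes with a length. All tested genes were put in 5 classes of like size by length. In the shortest class the median log2 fold change was -0.48, against -0.39 for the 70 members in it. In classes 2, 3 and 4 from the shortest it was -0.30, -0.26 and -0.12. The 11, 6 and 1 members in these had medians of -0.62, -0.92 and -1.28. In the longest class, with 0 members, it was 0.069 over all tested genes. The part of length in the members' median was not tested beyond a fit with a length and GC offset, in which the members' median was -0.53 and that of all genes -0.22.

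Genes that work beside the complexes gave mixed results. A list of 15 tested genes held cytochrome c and c1, inner membrane carriers, the outer membrane channels Vdac1 to Vdac3, the ATP synthase inhibitor Atpif1 and other enzymes that feed ubiquinone. Of these 2 passed the test (13.3%), both higher in skin, where 7.70% of all tested genes passed and 2.40% as higher. Slc25a3, the carrier that brings phosphate to the ATP synthase, rose from 113, 103 and 93.4 CPM in lymph node to 314 and 329 CPM in skin (log2 fold change 1.64 ± 0.24 SE, edgeR adjusted p of 0.0411). Slc25a4, an exchanger of ADP for ATP, rose from 417, 314 and 367 CPM to 857 and 804 CPM (1.18 ± 0.20 SE, adjusted p of 0.0452). The groups did not overlap for either. Slc25a5, the exchanger form of dividing cells, was at 975, 685 and 869.6 CPM against 412 and 488 CPM, with a log2 fold change of -0.91 and an adjusted p of 0.0653.

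Of 34 tested assembly factors that the symbol rule does not reach, 24 had negative and 10 positive log2 fold changes. The test was passed by 3, all lower in skin, a share of 8.82% that is near the 7.70% of all tested genes. Sdhaf2, which attaches the flavin to Sdha, fell from 194, 197 and 168 CPM to 69.7 and 72.2 CPM, with an edgeR adjusted p of 0.0496. Coa7, a complex IV assembly factor, fell from 662, 460 and 594 counts to 0 and 3 counts (adjusted p of 0.04998). Taco1, which activates translation of a mitochondrially encoded subunit, fell from 320, 221 and 251 counts to 0 and 0, at least 131-fold lower (adjusted p of 0.0452). In the citric acid cycle list 1 of 17 tested genes passed (5.88%), again near the 7.70% of all tested genes. That gene, Suclg2, the GTP-forming subunit of succinyl-CoA ligase, fell from 30.1, 37.9 and 33.8 CPM to 0.562 and 0.499 CPM, with an adjusted p of 0.0434.

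Among 14 tested regulators of mitochondrial biogenesis and DNA upkeep, 1 was higher and 3 lower, that is 28.6% against the 7.70% of all tested genes. This share of a short list was not tested. In edgeR fits without any single lymph node library, 0 of all tested genes passed. Polg2, the accessory subunit of the mitochondrial DNA polymerase, rose from 12.9, 15.9 and 11.5 CPM to 77.4 and 127 CPM (edgeR adjusted p of 0.0477). Peo1, the helicase that works with it, fell from 251, 230 and 231 counts to 1 and 0 counts (adjusted p of 0.0482). Tfb1m, which methylates mitochondrial ribosomal RNA, fell from 287, 176 and 243 counts to 0 and 0, at least 116-fold lower (adjusted p of 0.0460). Ppargc1b, a coactivator of mitochondrial genes, fell from 113, 113 and 264 counts to 0 and 0, at least 79.9-fold lower (adjusted p of 0.0489).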

How the data were processed

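Messenger RNA of sorted Tregs was sequenced in 3 lymph node and 2 skin libraries. Per the labels, the SMARTer low-input kit turned RNA into cDNA. The deposited table holds raw counts of reads per gene symbol in each library. The submitters' processing notes name HTSeq 0.6.1, SAMtools 0.1.19.0, Bowtie2 2.1.0.0, TopHat2 2.0.12 and CASAVA 1.8.2, with the build mm10. Settings such as strand, and the animals behind each library, are not stated in the labels, and the p-values then measure only the spread between libraries, which may be technical. The header has no cell for gene names, so its labels were moved right by 1 cell. Its 5 HTSeq summary rows were left out. The row for alignments without a unique place made up 64.5% to 72.0% of each column, which need not equal a share of reads. Of the 95 members, 24 overlap a protein-coding gene on the other strand.

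Counts were analysed in R 4.3.3 with edgeR 4.0.16: filterByExpr with a minimum count of 10, TMM scaling, the quasi-likelihood F test of skin against lymph node over all genes, and Benjamini-Hochberg adjustment with a threshold of 0.05. SE values of log2 fold changes were their size over the root of F. The fit was tested on simulated data with less spread between libraries than was estimated here, so its behaviour at the real spread was not tested. With 2 against 3 libraries, the smallest p that exact permutation could give is 0.1. A group at 0 was set to a floor of 3 counts over the group, 0.0719 CPM for lymph node or 0.145 CPM for skin, which covers counting error only. Transcript lengths, coding sequences and positions came from GENCODE M21, matched by symbol for 94 members and by synonym for 1. Alternatives were DESeq2 1.42.0, limma-voom 3.58.1, other scalings and filters, a replicate block, a length and GC offset, and leaving out each library.

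Members and lists were chosen with earlier results of these data known. Named were each member past the threshold, per complex the 3 most abundant and the 2 most positive and 2 most negative at an average log2 CPM of 5 or more, all of complex II, the isoform sets, members kept by the filter with a group at 0, and of each list outside the markers the genes past the threshold, or the 2 most abundant where none passed. Ndufs8, Ndufs5, Ndufab1, Ndufb4, Ndufaf1, Ndufaf7, Atp5sl, Atp5l, Uqcc3, Cox5a, Cox7c and Slc25a5 were named after their values were seen. The result of 1 marker list is not reported here.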

Additional observations from a re-analysis of the deposited data

How the results depend on the processing

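The members' median log2 fold change stayed negative under every alternative run, between -0.62 with upper quartile scaling and -0.24 without lymph node library 1. Medians without 1 library ranged from -0.51 to -0.24 over all members, -0.69 to -0.36 for complex I, -0.83 to -0.069 for complex II, -0.58 to -0.17 for complex III, -0.51 to -0.20 for complex IV and -0.45 to -0.15 for complex V. The median of all tested genes was -0.21 with TMM and -0.37 with upper quartile scaling. The members' median minus that of all genes was -0.25 in the reported fit, -0.017 with no low-count filter, 0.40 with limma-voom, 0.35 with the replicate block, 0.61 without skin library 1 and 0.073 without skin library 2, and -0.58 to -0.094 in the other alternatives. Members called higher numbered 0 to 3 and members called lower 0 to 13 without 1 library. The counts were 0 lower without any lymph node library, 3 higher and 13 lower without skin library 1, and 1 higher and 11 lower without skin library 2; in these last fits the lone skin library is assumed to vary like the lymph node group. In both fits with a lone skin library, a smaller share of members than of all tested genes was called. The member counts of these fits are thus not an excess over the background. Upper quartile scaling called 3 members lower (3.41% of members against 7.66% of all tested genes called), and unscaled totals 2 (2.27% against 7.61%). At least 1 CPM in all 5 libraries gave 3 lower (3.95% against 8.49%), and the length and GC offset 3 (3.41% against 9.59%). DESeq2 called 7 lower and 1 higher (9.09% against 28.5%), and limma-voom 5 lower (5.68% against 19.5%). Uqcrc2 was among the members called lower each time. Over all genes the main counts of 275 higher and 606 lower became 136 and 179 with no low-count filter, 343 and 199 with at least 1 CPM in all libraries, 1235 and 2027 with DESeq2 and 566 and 1665 with limma-voom.

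With the replicate number as a block, 11 genes were higher and 10 lower over all genes and 0 members passed (3 at an unadjusted p under 0.05 in edgeR); Uqcrc2 was at -1.40 with an adjusted p of 0.581. The deviations of same-numbered libraries had correlations of -0.032 and -0.029, and those of the other pairs ranged from -0.0048 to 0.032. With 2 skin libraries the deviations of 1 mirror those of the other, so these values cannot show whether libraries were paired. The labels give no pairing beyond the shared number.

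For named members, 457 of 508 alternative values kept direction and side of the threshold and 22 changed sign. Atp5b was 0.38 with limma-voom and 0.057 with the length and GC offset, Cox7a1 -0.36 with limma-voom and -0.81 with the block, Cox8a 0.15 with limma-voom, Ndufv3 -0.049 with upper quartile scaling and Uqcr11 -0.24 with the offset. Without 1 library the ranges that crossed 0 were -0.51 to 1.09 for Atp5b, -1.95 to 0.19 for Atp5d, -1.38 to 0.54 for Atp5g1, -0.34 to 0.033 for Cox4i1, -0.99 to 0.36 for Cox6a1, -5.78 to 2.36 for Cox7a1, -0.51 to 0.081 for Cox7a2, -1.27 to 1.10 for Cox8a, -0.74 to 0.067 for Ndufa13, -1.23 to 0.12 for Ndufa4, -0.083 to 0.69 for Sdhb and -0.84 to 0.22 for Sdhd. The causes were not tested.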
